A study of Mus musculus with 574 samples.

Results

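Interferon response genes were followed through the recovery of mouse granulocyte/macrophage progenitors (GMPs) from 5-fluorouracil (5-FU). The list holds 35 genes of 46078 in the count tables, chosen by gene name with earlier results of these data known. All 35 were found by symbol, and 28 passed the filter for testing. The question was whether their changes by day came from a few strongly responding cells or from all cells, and which members shared cells.

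GMPs give rise to neutrophils and monocytes in bone marrow. Single cells were sorted as lin-, c-Kit+, Sca-1-, CD34+ and FcγR+, and read by Smart-seq2, which covers whole transcripts and counts PCR copies as reads, since it uses no molecular identifiers. The mice were C57Bl/6, 6 to 12 weeks old, and had a single dose of 5-FU at 150 mg/kg, an antimetabolite that kills dividing cells, or PBS. All sets carry the treatment label 5-FU, day 0 included, and the labels do not say which mice had PBS. Sets came from days 0, 10, 12 and 14, with 1 set each, and from day 8, with 2 numbered sets. Bones were crushed or flushed, and the labels tie neither method to a set, nor do they give the number of mice.

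Interferons are secreted warning signals of infection. Type I interferons bind the Ifnar1 and Ifnar2 receptor, and the kinases Jak1 and Tyk2 then activate a complex that holds Stat2 and Irf9 and binds the interferon-stimulated response element (ISRE). Interferon gamma acts through Ifngr1 and Ifngr2, and its target genes often carry the gamma-activated site (GAS). The genes switched on include antiviral effectors, sensors of foreign nucleic acid, transcription factors that carry the signal on, and regulators that end it. In bone marrow, interferons are known to push resting stem cells into cycle and to alter myeloid output.

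The 8 members that passed a test in at least 1 comparison lie, on the mm10 build, at chr5:92346638-92348889 (Cxcl10), chr6:121245906-121270917 (Usp18), chr5:114923240-114937915 (Oasl1), chr12:103442167-103443680 (Ifi27l2a), chr16:23520291-23614222 (Rtp4), chr11:72301629-72313733 (Xaf1), chr17:78852564-78882573 (Eif2ak2) and chr3:142560026-142573209 (Gbp3). Of these, 5 had a promoter in the RefSeq table (GRCm38.p6), and they are shown because these are the genes the day comparisons turn on. Each runs 5′ to 3′ on the gene's strand over 300 bases around the annotated start, at chr5:92348840-92349139 on the minus strand for Cxcl10, chr17:78882523-78882822 on the minus strand for Eif2ak2, chr3:142559794-142560093 on the plus strand for the first of 2 Gbp3 entries, chr5:114922990-114923289 on the plus strand for Oasl1 and chr11:72301379-72301678 on the plus strand for Xaf1. Capitals mark matches to an ISRE (GAAA, NN and GAAA in 1 run) or a GAS (TTCNNNGAA), searched on both strands.
Cxcl10: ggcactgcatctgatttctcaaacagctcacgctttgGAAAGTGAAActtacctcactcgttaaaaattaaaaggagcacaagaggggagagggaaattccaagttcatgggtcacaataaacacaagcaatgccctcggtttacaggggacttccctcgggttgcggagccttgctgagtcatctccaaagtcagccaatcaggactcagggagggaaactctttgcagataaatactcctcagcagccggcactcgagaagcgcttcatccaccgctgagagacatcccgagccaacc
Eif2ak2: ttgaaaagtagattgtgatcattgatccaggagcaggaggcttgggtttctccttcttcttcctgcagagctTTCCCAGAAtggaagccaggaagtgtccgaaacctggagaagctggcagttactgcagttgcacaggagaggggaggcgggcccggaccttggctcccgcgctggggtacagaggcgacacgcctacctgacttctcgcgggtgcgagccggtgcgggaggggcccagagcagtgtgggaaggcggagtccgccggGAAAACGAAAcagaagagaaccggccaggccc
Gbp3: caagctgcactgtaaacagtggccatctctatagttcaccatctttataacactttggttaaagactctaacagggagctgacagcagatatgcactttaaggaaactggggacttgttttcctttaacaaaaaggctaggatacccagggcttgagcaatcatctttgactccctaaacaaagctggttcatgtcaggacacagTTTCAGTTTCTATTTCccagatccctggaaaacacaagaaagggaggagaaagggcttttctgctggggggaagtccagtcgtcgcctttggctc
Oasl1: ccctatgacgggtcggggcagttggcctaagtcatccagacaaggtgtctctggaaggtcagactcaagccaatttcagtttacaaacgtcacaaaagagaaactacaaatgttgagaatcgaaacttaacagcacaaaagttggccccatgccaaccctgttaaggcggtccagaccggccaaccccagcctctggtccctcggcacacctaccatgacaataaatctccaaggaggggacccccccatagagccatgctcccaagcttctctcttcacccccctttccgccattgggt
Xaf1: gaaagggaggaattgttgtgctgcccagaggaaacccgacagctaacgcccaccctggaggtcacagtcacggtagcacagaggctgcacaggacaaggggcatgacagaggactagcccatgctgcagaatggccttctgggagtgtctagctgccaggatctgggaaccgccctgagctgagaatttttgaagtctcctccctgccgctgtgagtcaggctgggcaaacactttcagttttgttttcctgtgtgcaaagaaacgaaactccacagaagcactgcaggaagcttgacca

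The Cxcl10 promoter held 1 ISRE match, GAAAGTGAAA, at -213 from the start. In Eif2ak2 an ISRE match lay at +18 and a GAS match, TTCCCAGAA, at -178. In Gbp3 a pair of ISRE matches, which overlap each other and read on the opposite strand, began at -45 and -39. The Oasl1 and Xaf1 windows held 0 matches. Over the list, 17 of the 31 member promoters (54.8%) held the ISRE letters, against 3.44% of all 32851 promoters in the table. The GAS letters were in 8 of the 31 (25.8%), against 8.3% of all promoters. These are matches of letters, and binding was not measured.

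Of 573 cells with a column, 500 had at least 50000 reads in genes and 1000 genes, and were kept: 92 at day 0, 90 and 93 in the day 8 sets, 93 at day 10, 85 at day 12 and 47 at day 14. Median depth ran from 79451 reads at day 14 to 289939 in the first day 8 set, and summed depth from 4849678 to 30691997. The sort gate genes summed to between 928 and 1086 CPM (read counts scaled to 1 common total of gene reads per set or cell) in every set. The sets at days 0 and 12 had Xist above 150 CPM and the others under 2 CPM, so the sex of the mice differs between those days and the others. Monocyte markers, all 10 of 10 read in every set, summed to 6417 CPM at day 0, 1402 and 595 at day 8, 1995 at day 10, 5251 at day 12 and 6350 at day 14. The 8 granulocyte priming genes were also lower at day 8, at 36950 and 28280 CPM, than in the other sets, at 77340 to 82710 CPM. Plasmacytoid dendritic cell markers, from cells known for making type I interferon, summed to 76.3 to 113.5 CPM, with Siglech at 0 to 0.117 CPM. Macrophage markers summed to 6.25 to 29 CPM. Of these, C1qa was 0 at days 0 and 14 and 1.375 CPM in the first day 8 set. T and NK cell markers summed to 681 to 1314 CPM, nearly all from Nkg7. Gzmb stood at 53.1 CPM in the first day 8 set and at most at 0.0582 CPM in the others. B cell markers summed to 31.5 to 69.3 CPM, nearly all from Cd79b, with Cd79a at 0 in the second day 8 set and at day 14. Malat1 and Neat1, which rise in RNA of poor quality, summed to 548 CPM at day 0, 215 and 296 at day 8, 235 at day 10, 369 at day 12 and 411 at day 14. The part of these differences in the members' levels was not tested.

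In most cells, a minority of the 35 genes was read. To compare cells at equal depth, each was thinned at random to 50000 reads. The median cell then had a read in 7 members at day 0, 7 in each day 8 set, 8 at day 10, 6 at day 12 and 4 at day 14. The median number of genes of any kind at that depth was 5143, 5867 and 5828, 5519, 5152 and 4700 in the same order, so both were lowest at day 14. Within sets, the Spearman correlation between members and genes read per cell ran from 0.095 at day 0 to 0.73 at day 14, as a description over cells that share a plate and a protocol.

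Few cells had many of the core members. Of 12 core members, which are strongly induced by type I interferon in many tissues, at least 5 were read in 1 of 90 and 2 of 93 cells at day 8, and in 1 of 93 at day 10. No such cell was found at days 0, 12 and 14, with 0 of 92, 0 of 85 and 0 of 47 cells. The exact 95% binomial intervals of these shares reach up to 3.93%, 4.25% and 7.55%. Cells 76 and 10 of day 0, picked out after their values were seen, had 4 core members each but a read in 19 and 17 of the 35 members, more than the 12 to 14 members of the 3 day 8 cells, and summed to 2030 and 2659 CPM. The shares were 1.11% and 2.15% at day 8 and 1.08% at day 10, with exact 95% binomial intervals (Clopper-Pearson) of 0.0281 to 6.04%, 0.262 to 7.55% and 0.0272 to 5.85%. These shares depend on the depth and the count asked for: the day 10 share was 6.49% in cells thinned to 100000 reads, and both day 8 shares were 0% when 6 of the 12 were asked for. The intervals overlap with one another, and the intervals and limits cover counting error only. Cells with 0 of the 12 made up 39.1% at day 0, 40% and 48.4% at day 8, 40.9% at day 10, 56.5% at day 12 and 70.2% at day 14.

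**Figure D1:**
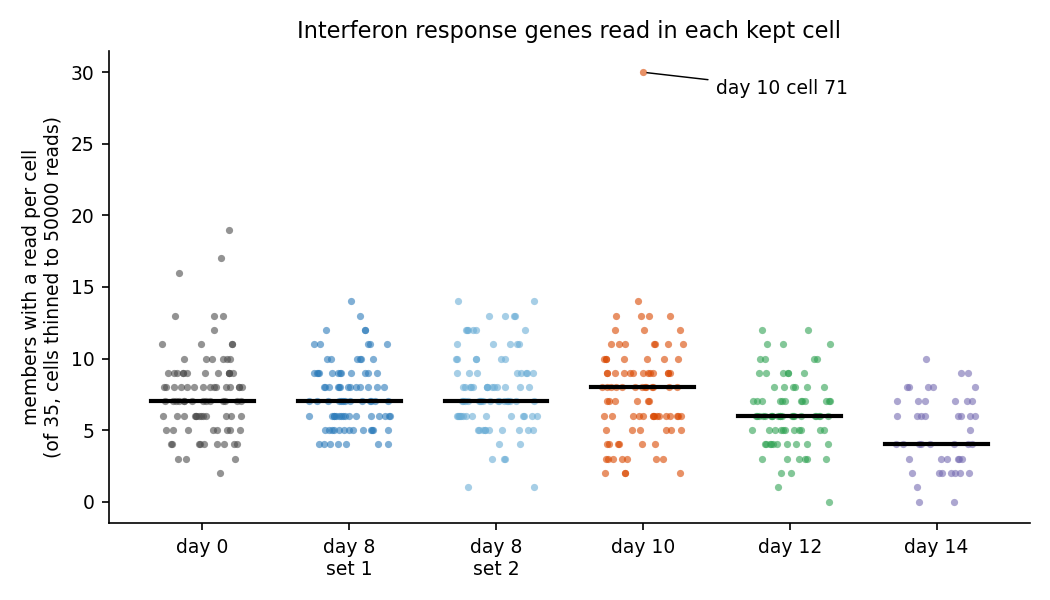
Number of the 35 members with a read in each kept cell after thinning to 50000 reads (vertical axis), by set (horizontal axis), with 1 point a cell and a bar at the median. The medians lie between 4 and 8, and 1 cell of day 10 stands at 30, above the next day 10 cell at 14.

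The exception was cell 71 of day 10, picked out after its values were seen, as the kept cell with the most core members read. It held 348206 reads in genes and 8303 genes, the rank 25 of 93 in both, while the other day 10 cells had a median of 7685 genes. A read was found for 34 of the 35 members, the missing one being Ifi27l2a, and for 30 after thinning, where the other 92 cells of the day reached at most 14. Summed over members, its level was 18831 CPM, against a median of 505 and a highest value of 2083 CPM in the other 92. The members took 1.88% of its reads. This 1 cell gave 1.27% of the day's gene reads and 31.2% of its member reads, or 14.5% with Cxcl10 left out.

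Cxcl10, a chemokine that draws in T cells, had 4119 reads in that cell, or 11830 CPM, against a mean of 10.0 and a highest value of 539.8 CPM in the others. Usp18, which strips Isg15 from proteins and damps receptor signalling, stood at 752 against a mean of 3.78 CPM, and Mx1, a GTPase that blocks influenza viruses, at 445 against 1.64 CPM. The GTPase genes Irgm1 and Igtp, which act on vacuoles holding microbes, stood at 827 against 53.1 and at 744 against 16.1 CPM. In all, 32 members were above the mean of the other cells and 18 had their highest CPM of the day there. The core members among them, such as Cxcl10, Usp18 and Mx1, are high in part because their count picked the cell. Of the 23 members outside the core, 22 had a read, 21 were above that mean and 9 had their highest CPM of the day there. Ifit2 and Ifih1, though induced by interferon too, were below the mean of the other cells, at 8.62 against 16.1 and 5.74 against 23.7 CPM.

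Other interferon targets that are not members were high in the same cell. Of 35 further targets fixed by name, 33 had a read and their sum was 7731 CPM, against a median of 1920 and a highest value of 4487 CPM in the other cells. Iigp1, a GTPase gene of the same class as Igtp, had 201 CPM against a mean of 0.0688. No ligand was read there: the 10 interferon genes had 0 reads. Ifngr1 had 91.9 CPM, the lowest of the 93 cells, against a mean of 749. The cell's granulocyte priming genes summed to 39630 CPM, against a median of 73200, and its monocyte markers to 1700 CPM, against 905, both within the range of the other cells. Its macrophage markers gave 2.87 CPM from 1 of 7 genes, against a median of 6.16 CPM in the other cells of the day, with C1qa at 0. Its plasmacytoid dendritic cell markers gave 91.9 CPM from 3 of 8 genes, against 66.5, with Siglech at 0, and its B cell markers 37.3 CPM from 1 of 5 genes, against 20.5, with Cd79a at 0. T and NK cell markers gave 91.9 CPM from 2 of 9 genes, against 961, with Cd3e at 0. These 4 sums lay within the range of the other cells. Ly6a, the gene of the sort gate antigen Sca-1, which interferon is known to induce, stood at 129.2 CPM, the highest of the day 10 cells, against a mean of 4.79 and a highest value of 81.6 CPM in the others. Whether the well held more than 1 cell was not tested.

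**Figure D2:**
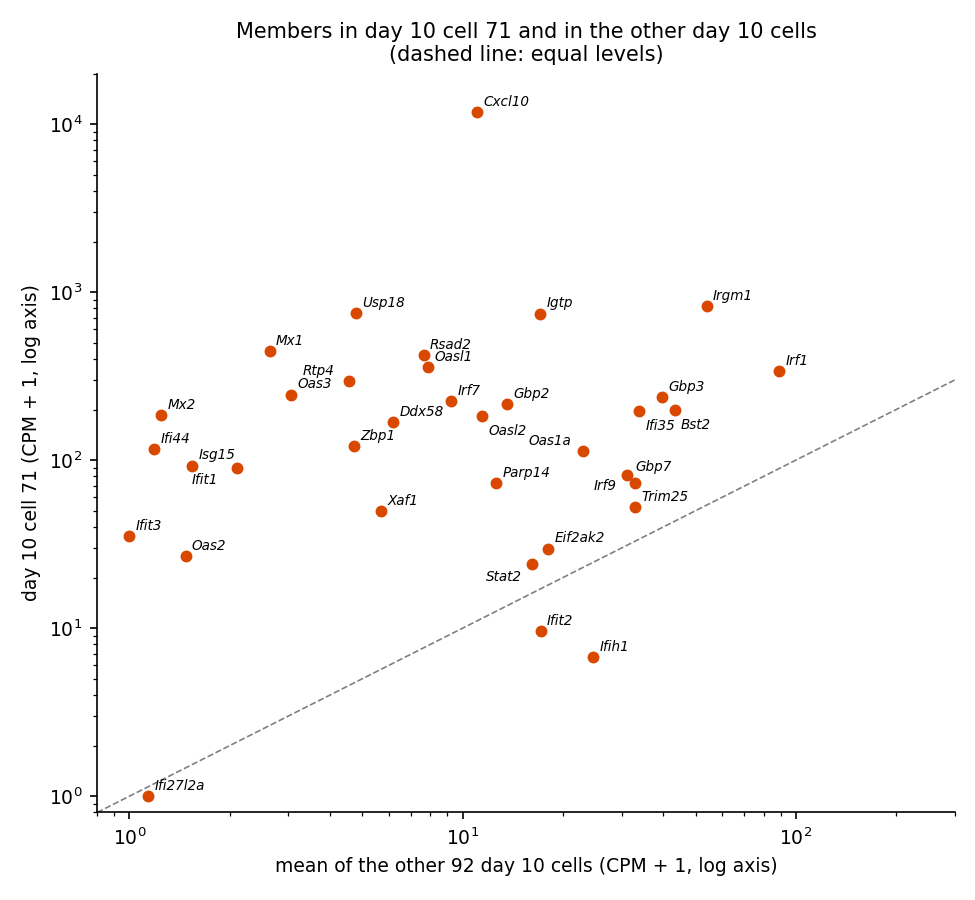
Level of each member in day 10 cell 71 (vertical axis) against its mean in the other 92 day 10 cells (horizontal axis), both as CPM + 1 on log axes, with 1 point a member and a dashed line of equal levels. Cxcl10 lies highest at 11830 CPM, and Ifit2, Ifih1 and Ifi27l2a lie below the line.

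Summed over cells, each set gave 1 value a gene, and days were compared with edgeR's quasi-likelihood test and Benjamini-Hochberg adjustment over 15145 genes. Only day 8 has replicate sets, and no label states that separate mice gave them. A p-value here measures the spread of these 2 sets, which may be technical, mostly as pooled over all genes. With a prior of 51.5 against 1 residual degree of freedom, a gene's own gap between the 2 sets counts little. In such sums, fewer responding cells and less RNA per cell cannot be told apart, so shares of cells are given beside them. Comparisons with day 0 share the day 0 set, and those with day 8 share the day 8 sets. A gene is called below when its adjusted p is under 0.05.

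Day 8 was lower than day 0 for most members by value, but few were called. Of the 28 tested, 22 had a negative and 6 a positive log2 fold change, with a median of -0.45, against 0.0095 over all genes tested. Called were 3 lower, Cxcl10, Usp18 and Ifi27l2a, and 1 higher, Oasl1, which is 14.3% of those tested, where 5.63% of all genes were called. On day 10 against day 0, 2 were called higher, Cxcl10 and Oasl1, and 1 lower, Ifi27l2a, where 1.45% of all genes were called, and the median was 0.014. On day 12 against day 0, Rtp4 and Cxcl10 were called lower and none higher, at a median of -0.37, where 0.172% of all genes were called and 0.106% lower. For that count of 0, edgeR gave 0 members higher at an unadjusted p under 0.05, and DESeq2 0 as well. On day 14 against day 0, 5 were called lower (Cxcl10, Rtp4, Xaf1, Ifi27l2a and Eif2ak2) and 0 higher, at a median of -0.62, where 1.58% of all genes were called and 0.72% lower. There too edgeR and DESeq2 gave 0 higher at an unadjusted p under 0.05.

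Against day 8, day 10 was higher by value for 26 of the 28 members, with a median log2 fold change of 0.44, against -0.021 over all genes. Only Cxcl10 and Usp18 were called, where 0.792% of all genes were called and 0.482% higher. On day 12, Gbp3 was called higher and Rtp4 lower than at day 8, where 2.5% of all genes were called. On day 14, Eif2ak2, Rtp4, Xaf1 and Oasl1 were called lower than at day 8 and none higher, or 14.3% of those tested, where 14.2% of all genes were called and 6.58% lower. In that comparison edgeR gave 1 member higher at an unadjusted p under 0.05, and DESeq2 gave 0.

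Leaving out cell 71 changed the day 10 picture. Against day 8, edgeR then called 0 members, where 0.773% of all genes were called, with 1 higher and 1 lower at an unadjusted p under 0.05, and 20 of 28 were still positive, at a median of 0.26. Against day 0, 7 were positive and 21 negative, at a median of -0.20, and Oasl1 was called higher and Cxcl10 and Ifi27l2a lower, where 1.43% of all genes were called. The other comparisons come from the same fit. Without that cell, Usp18 and Ifi27l2a were called for day 8 against day 0 (5.62% of all genes). Also against day 0, Rtp4 was called for day 12 (0.165%) and 4 members for day 14 (1.6%). Against day 8, 1 was called higher and 1 lower at day 12 (2.5%) and 4 lower at day 14 (14.2%).

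A stricter version left out, for every gene, its own highest cell in each set. Called were then 2 members lower for day 8 (5.62% of all genes), Oasl1 higher and Ifi27l2a lower for day 10 (1.18%), 0 for day 12 (0.087%) and 4 lower for day 14 (1.63%), all against day 0. Of the 0 for day 12, 6 were lower at an unadjusted p under 0.05 in edgeR. Against day 8, 0 were called for day 10 (0.536%), where 5 were higher and 1 lower at an unadjusted p under 0.05. On day 12, 1 was called higher and 1 lower (2.65%), and 3 were called lower at day 14 (13.8%).

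**Figure D3:**
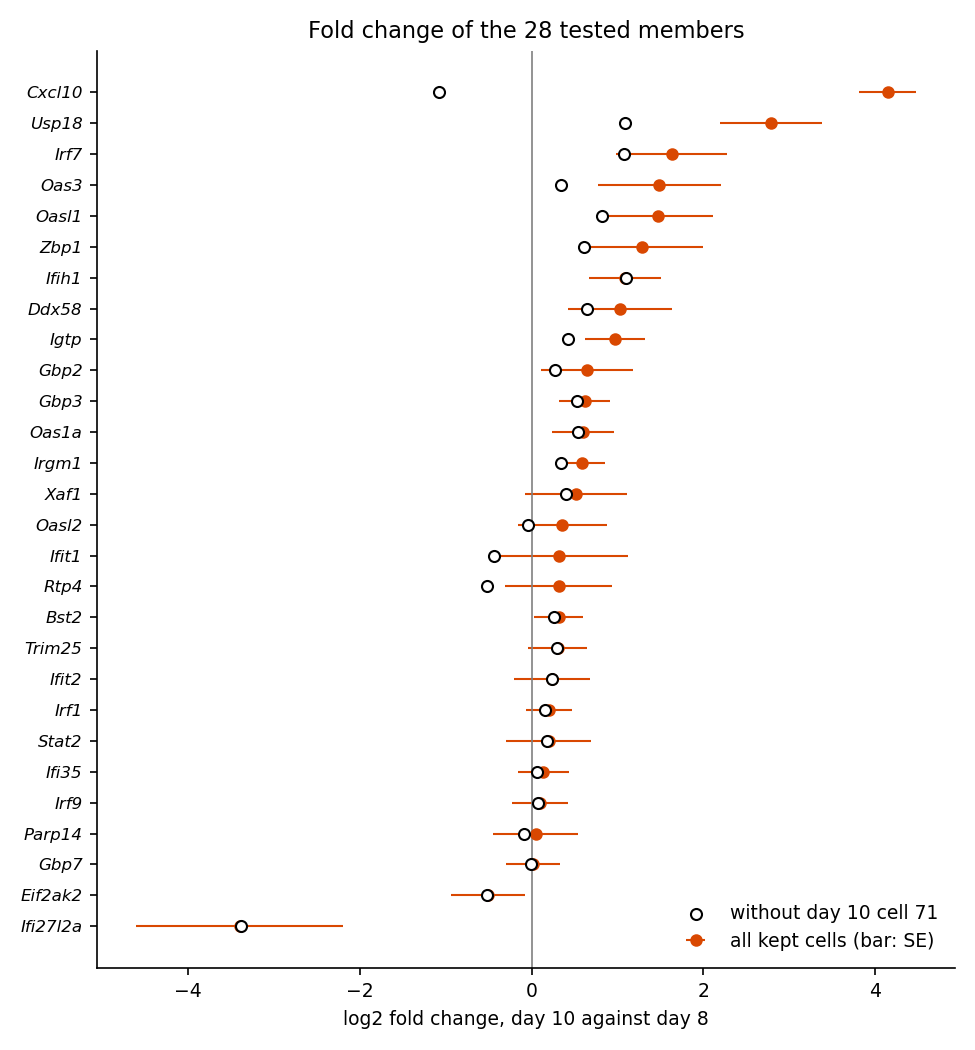
Log2 fold change of the 28 tested members, day 10 against day 8 (horizontal axis), with all kept cells (filled, bar: standard error) and without day 10 cell 71 (open). With all cells 26 lie above 0, and without the cell 20 do, with Cxcl10 moving from 4.14 to -1.08.

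Among the antiviral effectors, Oasl1 was the only member called in any comparison. It is an oligoadenylate synthetase-like protein that, in mice, represses translation of Irf7. Its level was 0.721 CPM at day 0, 4.74 and 3.79 CPM at day 8, 11.9 at day 10, 2.10 at day 12 and 0.499 at day 14. Both day 8 sets and the day 10 set lay above the other 3. The log2 fold change against day 0 was 2.55 (SE 0.81, adjusted p = 0.0485, edgeR) at day 8 and 4.03 (SE 0.90, adjusted p = 0.00784) at day 10. Cell 71 is in no set of the day 8 comparison but in the fit that all comparisons share. Without it, the day 8 value stayed at 2.55 (edgeR adjusted p = 0.0607), and the day 10 value was 3.37 (adjusted p = 0.0430). The day 8 call was also lost in DESeq2, with DESeq2 size factors, without Slc34a2 and without each set's highest cell. The day 10 call held in DESeq2 and without each set's highest cell. Neither held in cells thinned to 50000 reads.

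The rise of Oasl1 went with more cells in which it was read. It was read in 2.17% of cells at day 0, 13.3% and 9.68% at day 8, 21.5% at day 10, 3.53% at day 12 and 2.13% at day 14. At equal depth the shares were 2.17%, 6.67% and 5.38%, 12.9%, 2.35% and 0%, in the same order. For day 10 the log2 ratio to day 0 was 2.57 for the share and 0.94 for the reads per cell with a read. Without cell 71 these were 2.46 and 0.24. The day 0 side of these ratios rests on 2 thinned cells with a read. The day 8 level of the second set rested on 1 cell, which held 79% of its 105 reads, and without each set's highest cell the levels were 0.300 CPM at day 0 and 3.36 and 0.794 at day 8. On day 14 Oasl1 had 2 reads, and day 8 was 8.62-fold higher (counting interval 2.36 to 71.6, edgeR adjusted p = 0.0426). This call was lost without each set's highest cell, in DESeq2 and in cells thinned to 50000 reads.

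The 2 effectors with the highest mean CPM, Bst2 and Oas1a, passed no test. Bst2, or tetherin, which holds budding virus on the cell surface, had 51.1 CPM at day 0, 32.2 and 42.8 at day 8, 46.6 at day 10, 50.4 at day 12 and 50.7 at day 14. It was read in 57.4 to 71.1% of thinned cells, a share high in every set. Oas1a, which makes the 2-5A signal on meeting double-stranded RNA, had 25.7, 18.8, 15, 25.6, 18.6 and 16.7 CPM in the same order. It has close copies in the genome, so its reads may be split between them. Of the 13 effectors, 6 were too sparse to test: Ifit3, Mx1, Mx2, Oas2, Rsad2 and Isg15, with levels from 0 to 9.35 CPM. Of the 164 day 10 reads of Mx1, 155 came from cell 71, which is 94.5%. Ifit1, Ifit2, Oas3 and Oasl2 ran from 0.249 to 18.8 CPM and passed no test.

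**Figure D4:**
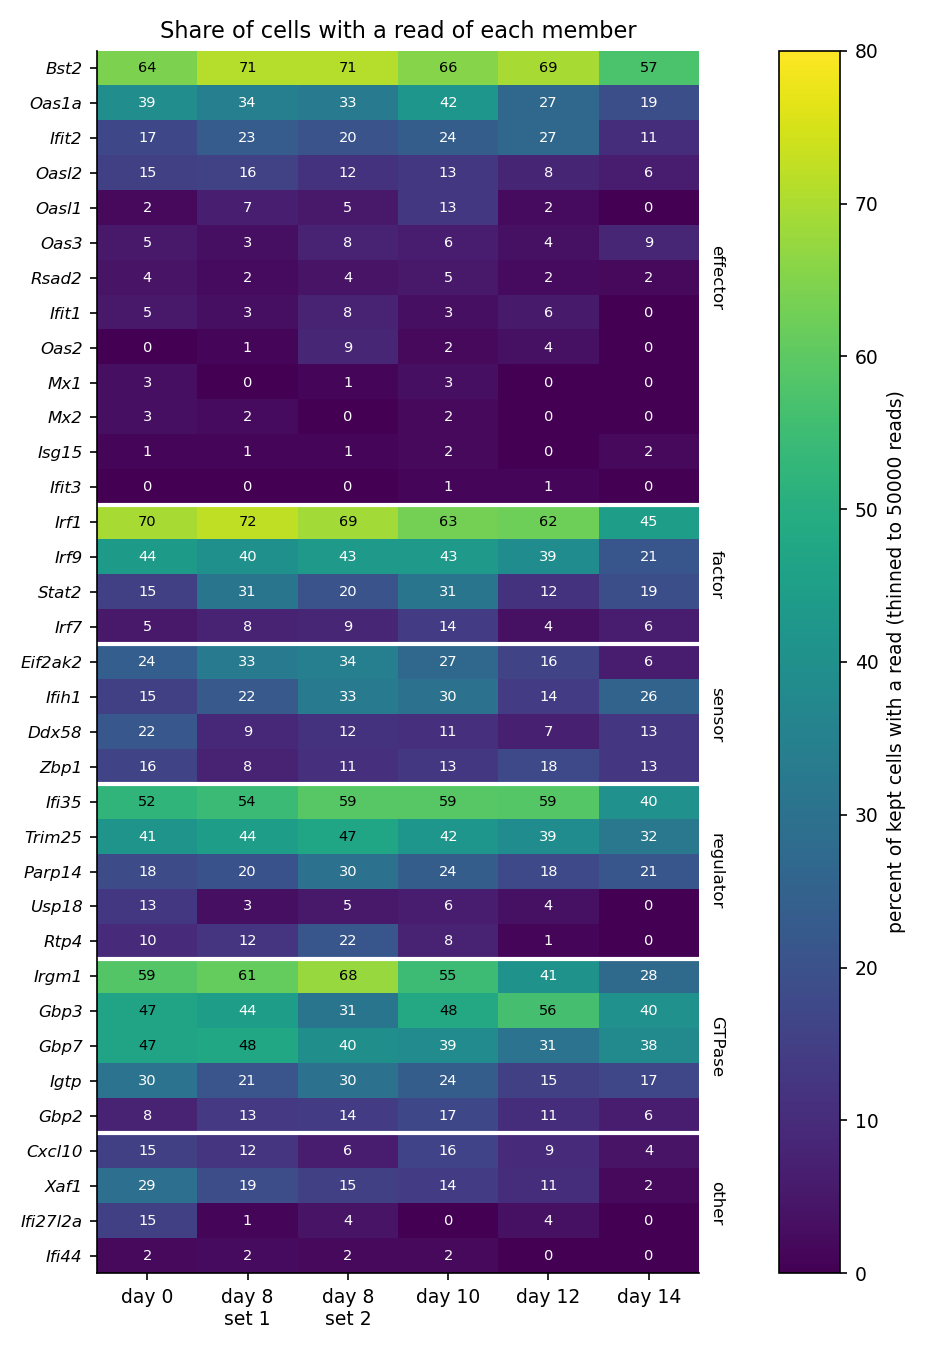
Percent of kept cells with a read of each member after thinning to 50000 reads, with 1 row a member, grouped by role, and 1 column a set. Bst2, Irf1, Ifi35 and Irgm1 are read widely in most sets, while Mx1, Mx2, Isg15, Ifit3 and Ifi44 are read in at most 3.26% of cells of any set.

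All 4 transcription factors were tested, and 0 were called by edgeR or DESeq2 in any of the 7 comparisons. Of the 28 tests 3 had an unadjusted p under 0.05 in edgeR. Irf1, a factor induced by both kinds of interferon, had 102.9 CPM at day 0, 100.1 and 77.7 at day 8, 102.0 at day 10, 133.1 at day 12 and 83.1 at day 14. Day 12 was highest, but 44.1% of its reads there came from 1 cell. Irf9, the DNA-binding partner of Stat2, had 36.8, 28.4, 25, 28.6, 27.8 and 18 CPM, and was highest at day 0 and lowest at day 14. Stat2 ran from 7.10 to 11.4 CPM. Irf7, which amplifies type I interferon production, ran from 1.46 CPM at day 12 to 8.53 at day 10.

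Of the 4 nucleic acid sensors, Eif2ak2 fell at day 14. Its product, PKR, is a kinase that halts translation on meeting double-stranded RNA. It had 14.8 CPM at day 0, 18.2 and 18.7 at day 8, 13 at day 10, 9.84 at day 12 and 2.75 at day 14. Day 14 lay below every other set, and its log2 fold change was -2.43 against day 0 (SE 0.62, adjusted p = 0.0254, edgeR) and -2.75 against day 8 (SE 0.58, adjusted p = 0.000683). Both calls held without each set's highest cell. In DESeq2 Eif2ak2 was called only for day 14 against day 8, and in cells thinned to 50000 reads for neither. Its reads were spread over many cells in the first 4 sets, where the highest cell held 8.74 to 19.7% of them. At day 12 the highest cell held 37.3%. At day 14 it held 54.5% of only 11 reads, which lay in 4 cells. The share of thinned cells with a read was 23.9% at day 0, 33.3% and 34.4% at day 8, 26.9% at day 10, 16.5% at day 12 and 6.38% at day 14. Against day 8, the log2 ratio at day 14 was -2.41 for the share and -1.27 for the reads per cell with a read. The second value rests on 3 thinned day 14 cells with a mean of 1.33 reads, too few to measure a level per cell.

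Ifih1, or MDA5, a sensor of long double-stranded RNA, had 8.95 CPM at day 0, 9.69 and 10.3 at day 8, 21.2 at day 10, 9.26 at day 12 and 17.5 at day 14, and was not called. Its day 10 level did not come from cell 71, where it was low. Ddx58, or RIG-I, ran from 2.15 to 10.0 CPM and Zbp1 from 1.16 to 3.99 CPM.

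Of the 5 regulators, Usp18 and Rtp4 moved. Usp18 had 9.85 CPM at day 0, 1.35 and 2.56 at day 8, 13.5 at day 10, 3.90 at day 12 and 0.998 at day 14. Both day 8 sets lay below days 0 and 10. The log2 fold change was -2.34 for day 8 against day 0 (SE 0.60, adjusted p = 0.0106, edgeR), and this call held without cell 71 (adjusted p = 0.0238) and without each set's highest cell (adjusted p = 0.0320). It was lost in DESeq2 (adjusted p = 0.103), in cells thinned to 50000 reads (edgeR adjusted p = 0.185) and in cells with at least 200000 reads and 2000 genes, where the value was -1.42 (adjusted p = 0.213). The day 8 fall showed in both measures, with log2 ratios of -1.58 for the share of cells and -1.46 for the reads per cell with a read. The day 8 side rests on 3 and 5 thinned cells in the 2 sets. The day 10 level was of another kind: 262 of 375 reads, or 69.9%, came from cell 71. Without its highest cell, day 10 had 4.07 CPM, against 7.87 at day 0 and 1.01 and 1.84 at day 8. The fold change for day 10 against day 8, 2.79 (SE 0.59, adjusted p = 0.00728), was not called without it.

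Rtp4, a chaperone of receptors that damps interferon responses in mice, was present through day 10 and nearly gone after it. It had 6.25 CPM at day 0, 4.55 and 8.70 at day 8, 8.24 at day 10, 0.233 at day 12 and 0 at day 14. Days 12 and 14 lay below all 4 earlier sets. The log2 fold change at day 12 was -4.71 against day 0 (SE 0.98, adjusted p = 0.0115, edgeR) and -4.79 against day 8 (SE 0.93, adjusted p = 0.000732). With 0 reads at day 14, and 3 reads over the set as the floor, it was at least 8.35-fold lower than at day 0 (adjusted p = 0.00898) and at least 8.85-fold lower than at day 8 (adjusted p = 0.00082). It was read in 12.0% of cells at day 0, 15.6% and 29% at day 8, 11.8% at day 10, 2.35% at day 12 and 0% at day 14. At equal depth these shares were 9.78%, 12.2% and 21.5%, 7.53%, 1.18% and 0%. On day 12 against day 8 the log2 ratio was -3.85 for the share and -1.37 for the reads per cell with a read. The second value rests on the 1.18% of thinned day 12 cells with a read, too few to measure a level per cell. Without each set's highest cell, the calls against day 0 were lost at day 12 (edgeR adjusted p = 0.0589) and at day 14. Both calls against day 8 held there. In DESeq2, Rtp4 was called at days 12 and 14 against day 8 and in no comparison with day 0. In thinned cells it was not called in any comparison.

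Ifi35 and Trim25, the most abundant regulators by CPM, passed no test. Ifi35, an interferon-induced leucine zipper protein, had 37.2 CPM at day 0, 33.3 and 35.9 at day 8, 38.1 at day 10, 35.4 at day 12 and 34.7 at day 14, close to level throughout. Trim25, a ubiquitin ligase that helps RIG-I signal, had 25.7, 21.9, 23.6, 28, 24.2 and 16.2 CPM. Parp14 ran from 7.58 to 12.5 CPM.

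Among the 5 interferon-inducible GTPases, Gbp3 rose from day 8 to day 12. This guanylate-binding protein had 39.5 CPM at day 0, 30.7 and 20 at day 8, 38.9 at day 10, 63.2 at day 12 and 38.9 at day 14. Day 12 was the highest set and both day 8 sets the lowest. The log2 fold change was 1.32 (SE 0.29, adjusted p = 0.00407, edgeR), and 1.04 with the first day 8 set alone and 1.65 with the second alone. It was read in 60.9% of cells at day 0, 61.1% and 44.1% at day 8, 66.7% at day 10, 68.2% at day 12 and 48.9% at day 14. At equal depth these shares were 46.7%, 44.4% and 31.2%, 48.4%, 56.5% and 40.4%. The rise was spread over cells: the highest cell held 14.7% of the day 12 reads, and the log2 ratio was 0.58 for the share and 0.50 for the reads per cell with a read. Gbp3 was not called for day 12 against day 8 in DESeq2 or in cells thinned to 50000 reads. It lies in a cluster of similar genes, so its reads may be split between copies. Irgm1 had 68.8 CPM at day 0, 43 and 38 at day 8, 60.7 at day 10, 63.3 at day 12 and 44.9 at day 14, and was not called. Gbp2 ran from 2.75 to 11.4 CPM, Gbp7 from 22.8 to 40.4 and Igtp from 10.7 to 28.6, all uncalled.

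Cxcl10 shows most plainly how 1 cell can set a day's level. It had 23.9 CPM at day 0, 11.9 and 5.27 at day 8, 152.2 at day 10, 5.30 at day 12 and 5.99 at day 14. Day 10 was far above all other sets, and day 0 above the remaining 4. The log2 fold change was 2.67 for day 10 against day 0 (SE 0.40, adjusted p = 2.65e-05, edgeR) and 4.14 against day 8 (SE 0.33, adjusted p = 2.55e-13). Cell 71 held 97.4% of the 4230 day 10 reads, and without it the values turned negative, to -2.56 (adjusted p = 0.0178) and -1.08 (adjusted p = 0.672). Without its highest cell, each set had 17.3 CPM at day 0, 7.30 and 3.43 at day 8, 3.99 at day 10, 2.97 at day 12 and 0.998 at day 14.

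The share of cells with Cxcl10 was also highest at day 10, but close to that at day 0. It was 25% at day 0, 18.9% and 12.9% at day 8, 28% at day 10, 10.6% at day 12 and 8.51% at day 14. Thinned, the shares were 15.2%, 12.2% and 6.45%, 16.1%, 9.41% and 4.26%. Thinned and without cell 71, day 10 matched day 0 in the share, at 15.2% each, with a log2 ratio of -1.04 in the reads per cell with a read. With all cells, the Cxcl10 log2 fold change against day 0 was -1.47 at day 8 (SE 0.33, adjusted p = 0.0028, edgeR), -2.17 at day 12 (SE 0.42, adjusted p = 0.00541) and -2.0 at day 14 (SE 0.47, adjusted p = 0.0135). Cell 71 is in none of these sets. Fitted without it, the values were -1.48, -2.17 and -2.0, and in that fit none of the 3 was called (edgeR adjusted p = 0.0610, 0.142 and 0.105). The day 8 value was -2.17 with the second day 8 set alone and -1.01 with the first alone.

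Xaf1, which counters an inhibitor of cell death, and Ifi27l2a, a small membrane protein, were highest at day 0. Xaf1 had 12.6 CPM at day 0, 4.83 and 4.44 at day 8, 6.62 at day 10, 3.09 at day 12 and 0.25 at day 14. Day 0 lay above every later set, and day 14, with 1 read, below every other. Day 0 was 50.3-fold higher than day 14 (counting interval 8.93 to 2000; edgeR adjusted p = 0.0029), and day 8 was 18.6-fold higher (3.32 to 739; adjusted p = 0.00975). Both calls held without each set's highest cell. Neither held in DESeq2 or in cells thinned to 50000 reads. Xaf1 was read in 34.8% of cells at day 0, 32.2% and 30.1% at day 8, 26.9% at day 10, 16.5% at day 12 and 2.13% at day 14. In thinned cells the shares were 29.3%, 18.9% and 15.1%, 14%, 10.6% and 2.13%. Its day 0 reads lay in 32 cells, and the highest held 10.5% of them.

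Ifi27l2a had 5.65 CPM at day 0, 0.489 and 1.16 at day 8, 0.072 at day 10, 1.05 at day 12 and 0 at day 14. Day 0 lay above all later sets. Its log2 fold change at day 8 was -2.78 (SE 0.79, adjusted p = 0.0258, edgeR), and 0.0258 again without cell 71. On day 10 it had 2 reads, and day 0 was 78.5-fold higher (counting interval 21.1 to 658; adjusted p = 0.00376). On day 14 it was at least 7.54-fold lower (edgeR adjusted p = 0.037). Without each set's highest cell the day 8 and day 10 calls held and the day 14 call was lost. In DESeq2 and in cells thinned to 50000 reads, Ifi27l2a was not called in any comparison. Ifi27l2a was read in 20.7% of cells at day 0, 2.22% and 6.45% at day 8, 1.08% at day 10, 5.88% at day 12 and 0% at day 14, and in thinned cells in 15.2%, 1.11% and 4.3%, 0%, 3.53% and 0%. The day 8 fall lay in the share, with a log2 ratio of -2.48, while the reads per cell with a read had a ratio of 0.14. The latter rests on few day 8 cells. Ifi27l2a is 1 of a set of similar neighbouring genes, so its reads may be split. Ifi44 was not tested, at 0 to 3.67 CPM.

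**Figure D5:**
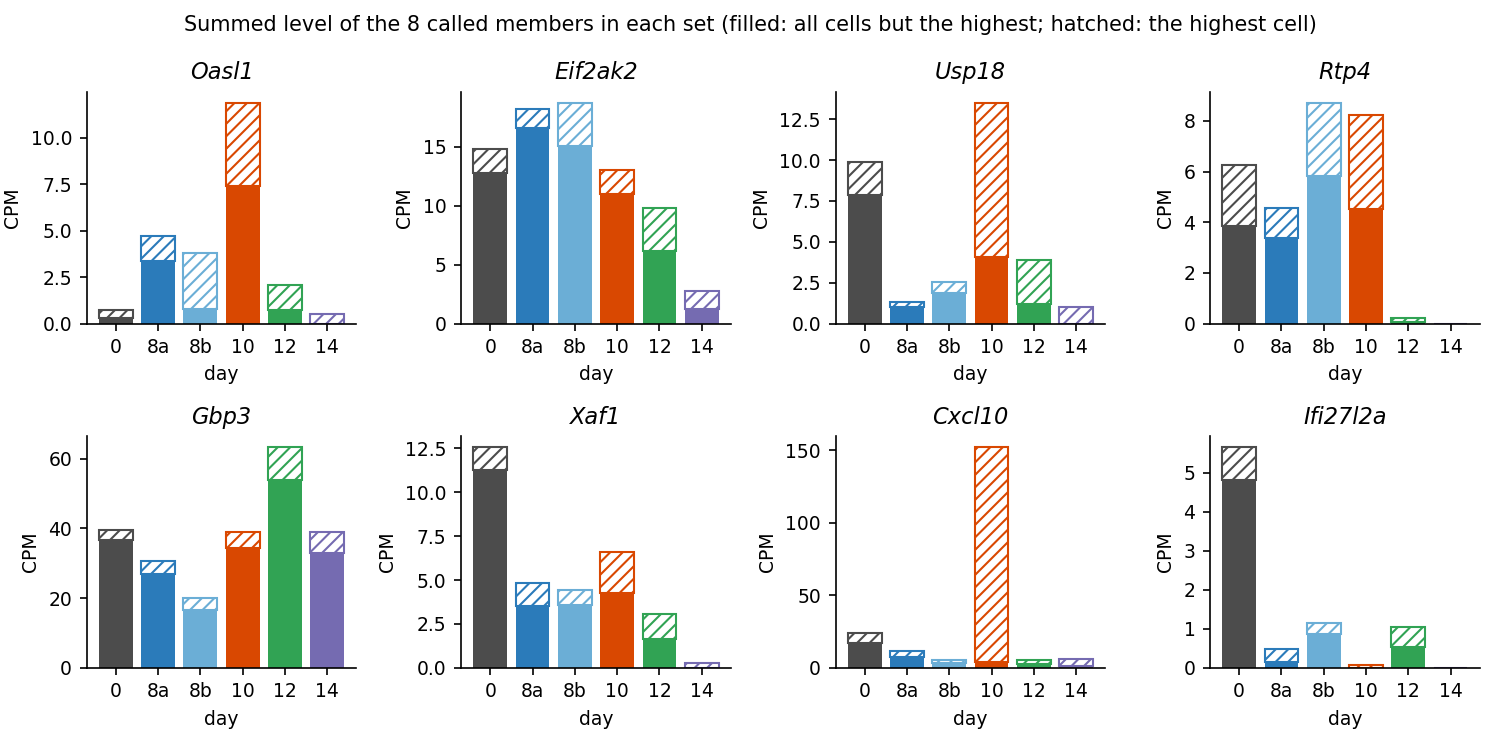
Summed level in CPM (vertical axis, from 0) of the 8 members called in any comparison, in each set (horizontal axis, 8a and 8b are the first and second day 8 set), with the part from the highest cell hatched. The hatched part is nearly all of Cxcl10 at day 10 (97.4%), and a small part of Gbp3 in every set (6.99 to 17.5%).

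Concentration of reads was common among sparse members. Over members read in at least 10 cells of a set, the highest cell held a median of 15.7% of the reads at day 0, 14.9% and 19.6% at day 8, 19.9% at day 10, 21% at day 12 and 20.4% at day 14. A single cell held the majority of the reads for 3 such members at day 10, 2 at day 12 and 0 in the other sets. On day 10, cell 71 had the most reads for 20 members. Uneven amplification of cDNA in single wells, without molecular identifiers, also gives such concentration, and its share here was not tested.

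Members shared cells weakly once cell 71 was set aside. Over 435 pairs of 30 members in 499 thinned cells, the median of the Spearman correlations within sets was 0.0099, which describes sparse reads and is given with no test. The highest value was 0.23, for Usp18 and Rtp4, which were read together in 8 cells, 28.6% of the 28 with Usp18 and 17% of the 47 with Rtp4. Rtp4 was read in 8.28% of cells without Usp18. Oasl2 and Usp18 were read together in 11 cells, 18.3% of the 60 with Oasl2 and 39.3% of the 28 with Usp18. Oasl2 was read in 10.4% of cells without Usp18. Gbp7 and Irgm1, both read widely, met in 124 cells, 61.4% of the 202 with Gbp7 and 45.9% of the 270 with Irgm1. With 202 and 270 of all 499 cells holding these genes, many such meetings would arise with no link between them. Of the 435 pairs, 14 had a positive correlation in every set where both could be compared, and 43 had a median above 0.1. Gbp3 and Cxcl10, at -0.15, met in 14 cells, 6.28% of the 223 with Gbp3 and 25.5% of the 55 with Cxcl10.

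The genes most like the members were found by correlating each gene, within every set, with the number of members read per thinned cell, and taking the median over the 6 sets. Of 8223 genes read in at least 20% of cells of every set, the median was 0.064 and 99% were below 0.23. The 10 highest were H2-D1 (0.38), Crlf3 (0.35), Apobec3 (0.33), Serinc3 (0.33), H2-K1 (0.32), Ifitm3 (0.31), Mndal (0.30), Cd34 (0.30), Psme1 (0.29) and Rps3 (0.29). The values differed between sets: H2-D1, a class I antigen-presenting molecule, had 0.063 at day 0, -0.052 and 0.34 at day 8, 0.42 at day 10, 0.43 at day 12 and 0.73 at day 14. On day 14 the members read per cell also went with all genes read, as given above.

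The rest of the pathway was read from lists fixed by name. Of the ligands, the 10 interferon genes summed to at most 0.245 CPM in any set and none could be tested. Of 6 receptor genes, 5 were tested and edgeR called 0 in any comparison with day 0, where 3 of 20 tests had an unadjusted p under 0.05. Ifngr1 had 656 CPM at day 0, 386 and 369 at day 8, 766 at day 10, 636 at day 12 and 509 at day 14. It was higher at day 10 than at day 8 by a log2 fold change of 1.02 (SE 0.27, adjusted p = 0.0470, edgeR). This was 20% of the 5 tested, where 0.792% of all genes were called.

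Among the kinase and STAT genes, Stat3, which also carries signals of growth factors such as G-CSF, rose on day 8 against day 0, with a log2 fold change of 0.88 (SE 0.28, adjusted p = 0.0463, edgeR). It had 51.3 CPM at day 0, 91.9 and 97.5 at day 8, 91.5 at day 10, 68.1 at day 12 and 42.7 at day 14. On day 14 against day 8, Stat3 (-1.15, adjusted p = 0.00528) and Jak2 (-1.37, adjusted p = 0.0447) were lower. In that comparison 14.2% of all genes were called. Of the 5 kinase and STAT genes, 1 was called higher and 1 lower on day 8 against day 0, where 5.63% of all genes were called. Of 8 genes that brake the signal, 25% were called on day 8 against day 0 and 12.5% on day 12 against day 8. In the latter comparison 2.5% of all genes were called. Socs3, an inhibitor of Jak kinases, rose at day 8 against day 0 (2.91, SE 0.85, adjusted p = 0.0290). It was lower at day 12 than at day 8 (-3.37, adjusted p = 0.0208). Irf2bp2 fell at day 8 against day 0 (-0.92, adjusted p = 0.0277). Of 11 tested genes of interferon induction, 18.2% were called on day 8 and 9.09% on day 10, both against day 0. For day 10 against day 0, 1.45% of all genes were called. Myd88, an adaptor of Toll-like receptors, rose against day 0. Its log2 fold change was 1.19 at day 8 (adjusted p = 0.00835, edgeR) and 1.27 at day 10 (adjusted p = 0.0292). Irf5 fell at day 8 against day 0 (-1.31, adjusted p = 0.0439).

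Of 35 further interferon targets, 30 were tested. On day 8 against day 0, 3 fell and 0 rose by edgeR, or 10% of those tested, where 5.63% of all genes were called. The median log2 fold change was 0.00014, and 4 were higher and 4 lower at an unadjusted p under 0.05. The 3 were Ifi204 (-4.76, SE 0.82, adjusted p = 8.14e-05), Ifi209 (-3.34, SE 0.42, adjusted p = 1.41e-07) and Trim30a (-1.79, SE 0.28, adjusted p = 1.79e-05). Ifi209, of the cluster of DNA-binding Ifi200 genes, had 98.4 CPM at day 0, 17.6 and 1.70 at day 8, 25.7 at day 10, 76.4 at day 12 and 123.0 at day 14. The wide gap between its day 8 values counts little in its adjusted p, as said of the test above. Ifi209 was lowest in the day 8 sets, as were the monocyte markers given above. The part of the marker genes in this was not tested. On day 10 and on day 14, 1 further target each was lower than at day 0, or 3.33% of those tested, where 1.45% and 1.58% of all genes were called. On day 12 against day 8, 3 were higher and 1 lower, or 13.3%, against 2.5% of all genes. At day 14 against day 8, 3 were higher and 5 lower, or 26.7%, against 14.2% of all genes.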

How the data were processed

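Per the labels' protocols, 1 GMP was sorted to a well and amplified by Smart-seq2, and libraries came from Nextera XT. The authors deposited raw read counts for each gene in each cell. They name GSNAP, HTSeq 0.5.3p3 and mm10, per the submitters' processing notes. Neither step marks strand, so overlapping genes on opposite strands cannot be told apart.

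The labels list 574 cells, of which 573 had a column, and 1 column was not used. Rows naming no gene took 91.1% of reads in the median cell. They and the 92 spike-in rows were left out. No 2 cells had identical counts (0 pairs). IDs were matched to GENCODE vM21, whose build, GRCm38, is mm10. Shares of cells with a read of 1 member are at full depth except where thinning (to 50000 reads) or equal depth is named, and ratios of shares are from thinned cells.

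Counts of kept cells were summed per set and tested by the quasi-likelihood F test of edgeR 4.0.16 in R 4.3.3, with TMM factors, 1 mean for each day over all 6 sets, Benjamini-Hochberg adjustment and a threshold of 0.05. Tested genes passed filterByExpr and were read in 10% or more of the kept cells in some set. With 1 residual degree of freedom (prior 51.5, common dispersion 0.0755), the day 8 sets set the spread assumed for all days. Scripts were tested on simulated counts. Alternatives were DESeq2 1.42.0 or its size factors, no gene or cell filter, stricter cells, thinned cells, no Slc34a2, no day 14 set and each day 8 set left out. Leaving out cell 71 or each gene's highest cell was added after seeing the data. Shares have exact 95% intervals. Cells were handled in Python 3.11.15 with pandas 2.3.3, numpy 2.4.6 and scipy 1.17.1, and plots drawn in matplotlib 3.10.9.

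Members, lists and alternatives were chosen with earlier results of these data known. Named are all called members, the 2 highest by mean CPM in each role, the others by range, called pathway genes and the 10 genes most alike. Cell 71, and genes named only for their values in it, were chosen after their values were seen. Some genes of these lists are not reported here. No doublet caller was run. Sets of other days are 1 each, and plate cannot be told apart from day. Nor can sex, except for day 12 against day 0 and for days 10 and 14 against day 8, where both sides are of 1 sex.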

Additional observations from a re-analysis of the deposited data

How the results depend on the processing

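Members called changed most with thinning and with DESeq2. After thinning to 50000 reads, which left at most 1 called gene of 13205 in 6 of the 7 comparisons, 1 of 22 single-gene calls remained past the threshold, Cxcl10 for day 10 against day 8. Higher calls were then 0 for days 8 and 10 against day 0 and for day 12 against day 8, and lower calls were 0 in every comparison. DESeq2 gave an adjusted p to 11034 to 15145 genes by comparison, and kept 6 of the 19 calls counted for it. It gave 0 higher and 0 lower for day 8 and 0 lower for days 10, 12 and 14, all against day 0. Against day 8 it gave 1 higher for day 10, 0 higher for day 12 and 2 lower for day 14. Of the genes with an adjusted p, it called 2.97%, 0.447%, 0.0264%, 0.591%, 0.408%, 1.44% and 8.48%, in the order of the comparisons above. Cells with at least 200000 reads and 2000 genes kept 12 of 22, with 1 lower for day 8, 1 higher and 1 lower for day 12 against day 0, 2 higher and 2 lower for day 12 and 1 higher for day 14 against day 8, where 4.84%, 0.431%, 2.49% and 20.4% of all genes were called. DESeq2 size factors kept 19 of 22 and the fit without Slc34a2 21 of 22, both with 0 higher for day 8, where 4.94% and 4.99% of all genes were called. No gene filter gave 5 higher for day 10 against day 8 (0.538% of all genes), and no cell filter 2 lower for day 14 against day 8 (21%). Without cell 71, calls were 0 higher for day 8, 1 higher and 2 lower for day 10 and 1 lower for day 12 against day 0, and 0 higher for day 10 against day 8. Without each gene's highest cell they were 0 higher for day 8, 1 higher for day 10, 0 lower for day 12, and 0 higher for day 10 against day 8. The Cxcl10 log2 fold change for day 10 turned from 2.67 to -2.56 against day 0 and from 4.14 to -1.08 against day 8 without cell 71, and to -2.09 and -0.38 without the highest cells. The share of cells with 5 core members became 0% in the first day 8 set when 2 reads or 6 members were asked for, 0% in the second when 6 were, and 6.49% on day 10 in cells thinned to 100000 reads. Leaving out a day 8 set left 0 residual degrees of freedom and gave values with no test: Gbp3 for day 12 against day 8 was 1.65 without the first and 1.04 without the second, and Cxcl10 for day 10 against day 8 was 4.83 without the first and 3.68 without the second. No paired analysis was possible because only day 8 has more than 1 set. The cause of these changes was not tested. Day 14 had the fewest cells and reads, 47 and 4849678, and 7 members had 0 reads there.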

Other observations

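The cells with the highest summed member level in the other 5 sets were picked out after their values were seen. Cell 27 of day 12 had 551095 reads and 9212 genes, and its members summed to 3553 CPM, against a median of 377 and a highest value of 991 CPM in the other cells of the day. It gave 20.2% of the day 12 member reads. Irf1 had 1007 reads there, or 1827 CPM against at most 333.7 CPM in the others, and Irgm1 had 371 reads, and these 2 genes made up 70.4% of its member reads. Igtp in this cell held 53.8% and Ifit1 77.6% of the day's reads of those genes. It had a read in 12 members after thinning, against 30 in cell 71 of day 10.

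On day 0, cell 10 summed to 2659 CPM and had a read in 17 thinned members, led by Gbp7 with 415 CPM and Usp18 with 402 CPM. It held 48.4% of that set's Irf7 reads. In the second day 8 set, cell 91 summed to 1792 CPM, with 79% of the set's Oasl1 reads and 33.2% of its Rtp4 reads. Cxcl10 had its highest cell elsewhere in these 3 sets. In the first day 8 set, cell 68 summed to 1223 CPM and had a read in 8 thinned members, and Irf1 and Oasl2 made up 58.4% of its member reads. At day 14, cell 92 summed to 1210 CPM with 9 thinned members, and Irf1 and Gbp3 made up 50.5% of its member reads and the cell 10.9% of the day's.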
